A study of Mus musculus with 4 samples.

Results

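Endothelial nuclei, the nuclei of the cells that line blood vessels, made up 95 of 32299 kept barcodes in 4 libraries of single-nucleus RNA from mouse retina. A nucleus was taken when 7 vascular genes (Cldn5, Pecam1, Cdh5, Kdr, Tek, Slco1a4 and Ly6c1) summed to at least 4 unique molecular identifiers (UMIs, 1 per captured RNA molecule) with at least 3 of the 7 genes detected. It also had to hold at most 2 UMIs of the Müller glia genes Slc1a3 and Rlbp1 together, at most 2 of the neuronal genes Gad1, Slc6a9 and Slc17a6, at most 2 of the fibroblast genes Col1a2 and Col3a1, and at most 5% mitochondrial UMIs. These UMIs chose the nuclei, so every level below that sets endothelial nuclei against other nuclei is a description with no test. The rule kept 10 nuclei with exactly 4 UMIs of the 7 genes and 39 with exactly 3 of the genes. Just outside it lay 6 nuclei with 3 UMIs of 3 genes, 28 with 4 or more UMIs of 2 genes and 47 with 4 or more UMIs of 1 gene.

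The libraries came from left eyes of 2 mice of 5 months, whose labels name no genotype, and of 2 mice of 2.5 months, which were labelled wild type; each library was 1 numbered donor. Headers of the 5-month files name Cell Ranger 4.0.0 and those of the 2.5-month files name 7.1.0. An effect of age therefore cannot be told apart from one of the version, or of its intron setting, which is not given in the sources used here. The 5-month libraries held 28042269 and 36320257 UMIs in total, against 19608067 and 28723257 UMIs for the 2.5-month ones. No barcode was shared among the endothelial nuclei of different libraries. In such data, fewer nuclei of a type and weaker capture of that type cannot be told apart.

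Retinal endothelium forms a tight barrier. Its cells are joined by claudin 5 and occludin, carry glucose, amino acids and organic anions across by dedicated transporters, and keep this state under norrin and Wnt signalling through the receptor Fzd4, its co-receptor Lrp5 and the helper Tspan12. The choroid behind the retina has capillaries of the opposite kind, pierced by fenestrae that are bridged by diaphragms made of Plvap protein, and these vessels depend on VEGF signalling. Members of the ETS family of transcription factors, such as Erg, Fli1 and Ets1, act in endothelial cells of all vessel types, and their shared core site is GGAA.

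The promoters of endothelial genes were therefore read for ETS core sites. The AGGAAG form, searched on both strands in the 250 bases before the first listed start of each gene (RefSeq, build GRCm38.p6), was present in 13 of the 20 promoters found for the 37 genes of the rule and of a list of 30 further endothelial genes, which is 65%. The share was 29.2% over all 27025 promoters. The CGGAAG form, which cannot share a first base with AGGAAG, was present in 5% of the endothelial promoters and in 13.8% of all. The letters GATAAG, known as a core site of another factor family, were present in 0% of the endothelial promoters and in 6.60% of all. The start-site box TATAAA was present in 10% and in 13.0%. These motifs can overlap the ETS forms at their edges. A match is a description of these letters and not a measured binding site. The promoters below are shown because they belong to genes that the results turn on, namely the receptor Tie1, the adhesion receptor Adgrl4, the surface protein Emcn and the organic anion transporter Slco1a4; capitals mark AGGAAG or its reverse complement. They lie at chr4:118489850-118490099 on the minus strand, chr3:151437632-151437881 on the plus strand, chr3:137340828-137341077 on the plus strand and chr6:141856221-141856470 on the minus strand.
Tie1: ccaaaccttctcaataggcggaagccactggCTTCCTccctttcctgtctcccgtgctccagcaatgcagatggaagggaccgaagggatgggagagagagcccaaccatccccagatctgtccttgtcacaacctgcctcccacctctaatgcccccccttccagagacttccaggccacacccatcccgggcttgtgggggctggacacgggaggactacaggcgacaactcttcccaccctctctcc
Adgrl4: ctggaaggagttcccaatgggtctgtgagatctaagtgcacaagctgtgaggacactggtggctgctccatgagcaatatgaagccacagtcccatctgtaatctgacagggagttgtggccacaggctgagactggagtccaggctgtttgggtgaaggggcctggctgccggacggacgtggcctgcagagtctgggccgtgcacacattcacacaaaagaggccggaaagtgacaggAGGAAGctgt
Emcn: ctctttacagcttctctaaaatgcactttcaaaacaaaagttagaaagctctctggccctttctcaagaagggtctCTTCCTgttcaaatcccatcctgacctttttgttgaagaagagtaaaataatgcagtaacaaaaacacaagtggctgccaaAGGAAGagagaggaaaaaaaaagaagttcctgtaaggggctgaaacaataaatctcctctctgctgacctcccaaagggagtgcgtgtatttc
Slco1a4: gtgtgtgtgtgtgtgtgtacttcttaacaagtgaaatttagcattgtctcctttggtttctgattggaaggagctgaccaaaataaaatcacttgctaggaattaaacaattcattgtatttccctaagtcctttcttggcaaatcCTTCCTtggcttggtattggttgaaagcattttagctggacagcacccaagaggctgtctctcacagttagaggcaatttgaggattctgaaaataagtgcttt

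The number of endothelial nuclei differed more within an age than between the ages. They numbered 10 of 7536 barcodes (0.133%) in 5-month replicate 1 and 21 of 9959 (0.211%) in 5-month replicate 2, against 54 of 7385 (0.731%) in 2.5-month replicate 1 and 10 of 7419 (0.135%) in 2.5-month replicate 2. One 2.5-month library stood above the other 3, and the ages overlapped. Exact binomial 95% intervals were 0.0637% to 0.244% and 0.131% to 0.322% at 5 months, and 0.550% to 0.953% and 0.0647% to 0.248% at 2.5 months; like all intervals here they cover counting error only. The mean share was 0.172% ± 0.0553 at 5 months and 0.433% ± 0.422 at 2.5 months (SD, n = 2 each), a difference of -0.261 percentage points with an exact 2-sided permutation p of 0.667. With 2 mice an age, the smallest p this test can give is 0.333. Without 2.5-month replicate 1 the difference was 0.0370 percentage points, the other way, so that library sets the direction. Without the 2 nuclei of 5-month replicate 2 described below that go against their label, that library held 19 nuclei, or 0.191%. P-values measure the spread between these 4 animals.

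**Figure D1:**
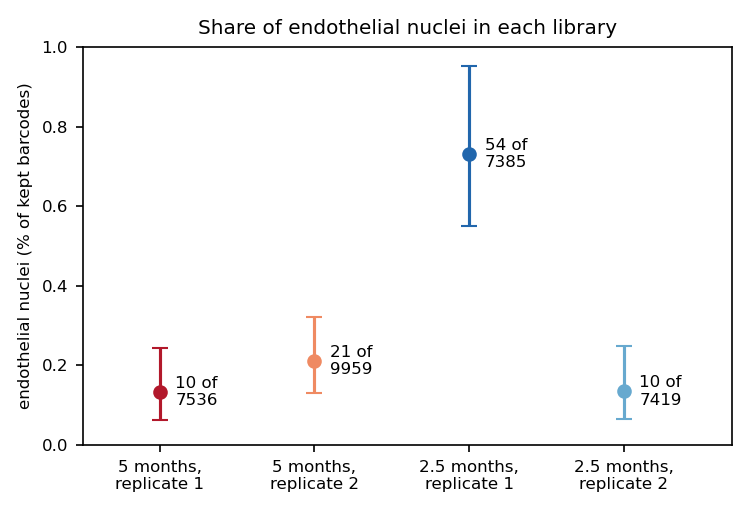
Endothelial nuclei as a percentage of kept barcodes in each library, with exact binomial 95% intervals; the 5-month libraries stand left of the 2.5-month libraries. The 2.5-month replicate 1 library, at 0.731%, lies above the other 3, which span 0.133% to 0.211%.

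The depth of the nuclei differed between libraries. Their median was 1480 and 2748 UMIs at 5 months, against 2445 and 2419 UMIs at 2.5 months, and single nuclei ranged from 943 to 11723 UMIs. In 5-month replicate 1 the endothelial median lay below the 2744.5 UMIs of all kept barcodes, and in 2.5-month replicate 1 above their 1815 UMIs. All kept barcodes had a median of 2788 UMIs in 5-month replicate 2 and 2899 UMIs in 2.5-month replicate 2. In all, the endothelial nuclei held 293154 UMIs, and such a nucleus had a median of 1478 detected genes. The 5-month replicate 1 nuclei were thus the shallowest and, at 17098 UMIs in sum, the least precise: 3 UMIs there equal 175 CPM (the share of the UMIs summed over a library's nuclei, scaled to counts per 1000000), against 34.6 CPM in 5-month replicate 2, and 18.8 and 102 CPM in the 2.5-month libraries.

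Markers of other cell types were present, and some nuclei held many. Summed rod, Müller glia and pigment lists were at 5837, 1764 and 1491 CPM in endothelial nuclei. In all other barcodes they were at 6375, 1824 and 1579 CPM, so these levels were similar. Neuronal genes were at 1542 CPM against 5804 CPM. Rod genes took a median of 0.546% and 0.329% of UMIs in 5-month endothelial nuclei and 0.650% and 0.570% in 2.5-month ones. Rods themselves had 2.60% to 2.88%, but they were picked by a share of at least 2%. The 10 macrophage genes had 29 UMIs together, from 7 of the genes. That was 98.9 CPM in endothelial nuclei, against 95.7 CPM in all other barcodes and 6640 CPM in macrophages. The remaining macrophage genes, Ptprc, Csf1r and Fcrls, had 0 UMIs. Of the 10 listed mural genes, 8 were higher in endothelial nuclei than in all other barcodes. Their sum was 1927 CPM against 743 CPM, and 8578 CPM in mural nuclei. Ebf1 alone gave 480 of the 565 mural UMIs, while Pdgfrb and Atp13a5 had 1 and 0 UMIs in all 95 nuclei. At least 4 UMIs of the whole pigment list were held by 1 and 9 nuclei at 5 months and by 14 and 1 at 2.5 months. The further counts of pigment UMIs in single nuclei, here and below, leave out Ttr, a gene of that list. Without Ttr, at least 4 pigment UMIs were held by 0 and 3 nuclei at 5 months and by 5 and 0 at 2.5 months. At least 4 UMIs of a neuron list were held by 1 and 7 nuclei at 5 months and by 16 and 0 at 2.5 months. Of the 95, 5 nuclei held 20 or more pigment UMIs, with a highest value of 68, and 6 held 20 or more neuronal UMIs, with a highest value of 77 in a nucleus of 11723 UMIs. A nucleus of 2.5-month replicate 1 held 53 pigment UMIs beside 9 UMIs of the list of 30 endothelial genes outside the rule. In 5-month replicate 2, 2 nuclei went against their label, with 0 UMIs over those 30 genes: one held 11305 UMIs, of which 53 were neuronal, and the other 4820 UMIs, of which 16 were neuronal. The second is 1 of the Plvap nuclei described below; without it, of 29 genes compared, the ratio of Spock2 moved by 1.59-fold and those of the other genes by at most 1.11-fold.

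The other 93 nuclei, mixed ones among them, had at least 4 UMIs of the 30 endothelial genes, with a median over all 95 nuclei of 37 UMIs from 14 genes and a highest value of 116 UMIs. Summed over the list, the level was 15148 and 10464 CPM in 5-month nuclei, against 13119.5 and 17754 CPM in 2.5-month nuclei. Over all 4 libraries it was 12915 CPM in endothelial nuclei, against 347 CPM in all other barcodes, 232 CPM in rods, 1356 CPM in Müller glia, 777 CPM in fibroblasts, 989 CPM in mural nuclei and 721 CPM in macrophages. Each of the 30 genes was over 10-fold higher in endothelial nuclei than in all other barcodes pooled, with a median ratio of 154, and 26 were higher in each of the 4 libraries. Because the nuclei were chosen by co-expressed genes, these ratios describe the label and support nothing further.

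The rule genes differed in how widely they were shared. Cldn5 (chr16:18776847-18778262, mm10), the main tight junction protein of barrier endothelium, had 13 and 38 UMIs in 5-month nuclei and 94 and 15 in 2.5-month nuclei, spread over 54 of the 95 nuclei. Pecam1 (chr11:106654217-106750628), an adhesion protein of the cell border, had 10 and 39 UMIs at 5 months and 117 and 12 at 2.5 months, in 73 nuclei. Cdh5, the cadherin of endothelial junctions, had 10 and 24 UMIs at 5 months and 47 and 10 at 2.5 months, in 57 nuclei. All 3 followed the number of nuclei in a library. Kdr, the main VEGF receptor, was at 454 CPM in endothelial nuclei but also at 344 CPM in Müller glia, and Tek, the angiopoietin receptor, was at 576 CPM against 4.47 CPM. Slco1a4 (chr6:141805440-141856199) and the surface protein gene Ly6c1 were concentrated, with 216 UMIs in 33 nuclei and 73 UMIs in 32 nuclei.

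Outside the rule, receptor phosphatase Ptprb, which acts on Tek and Cdh5, had 38 and 96 UMIs in 5-month nuclei and 207 and 33 in 2.5-month nuclei. It was detected in 84.2% of endothelial nuclei and 0.276% of rods. Thinned to 943 UMIs a nucleus, the depth of the shallowest endothelial nucleus, those shares were 65.6% of 95 endothelial nuclei and 0.178% of 5981 rods, with 1980 shallower rods left out. Before thinning, median depth was 2324 UMIs in the endothelial nuclei and 1214 UMIs in the rods. Ptprb was thus a widely shared gene of the endothelial nuclei at equal depth. Emcn, the mucin-like protein of capillaries and veins, was found at equal depth in 57.3% of endothelial nuclei and 0.404% of rods. Flt1, the VEGF receptor that binds VEGF without strong signalling, was found in 68.2% against 1.37%, although Müller glia held it at 1218 CPM beside 1944 CPM in endothelial nuclei. Podxl, a sialomucin, was found in more rods than these genes were: at equal depth 45.8% of endothelial nuclei and 12.9% of rods had it.

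**Figure D2:**
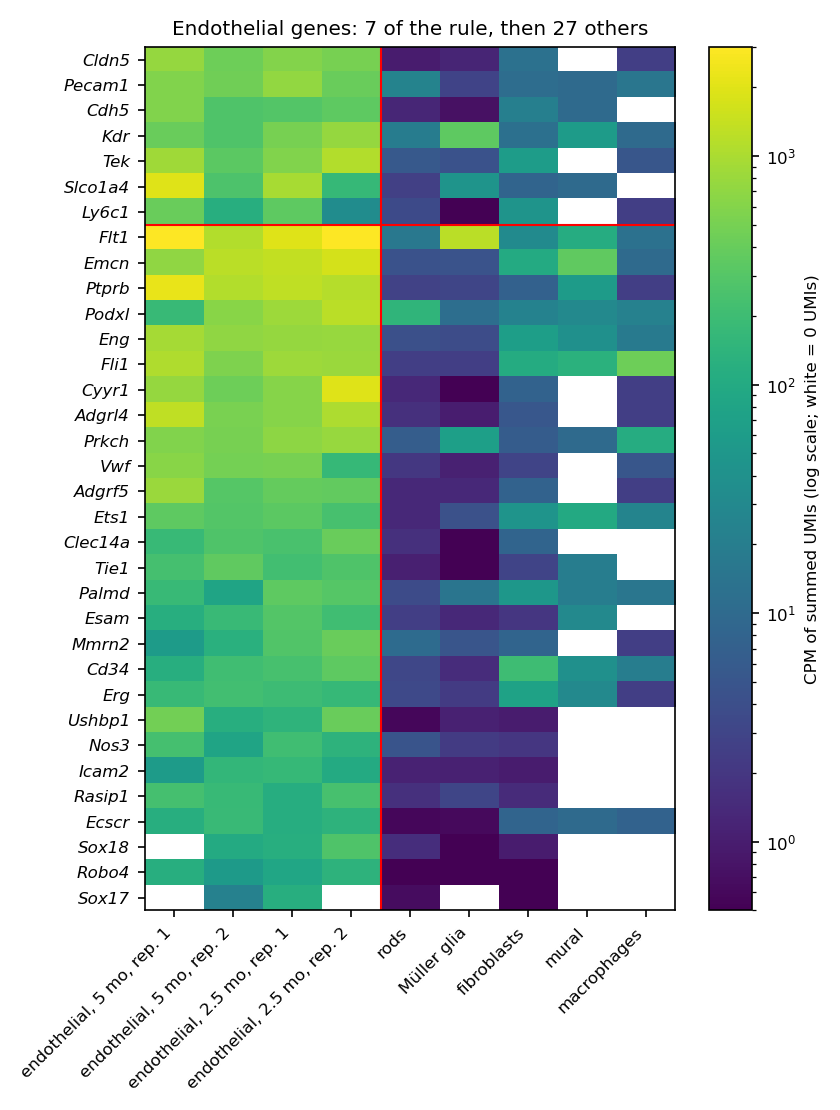
CPM of summed UMIs, on a log colour scale, for the 7 rule genes (above the red line) and 27 other endothelial genes with at least 20 UMIs. The 2 left columns are 5-month and the next 2 are 2.5-month endothelial nuclei, and the columns right of the red line are other classes over all libraries; white is 0 UMIs and levels past either end of the scale take its end colour. Kdr and Flt1 stand out in Müller glia, Podxl in rods and Fli1 in macrophages.

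The ETS factors differed in how widely they were found. Erg had 58 UMIs in 39 nuclei, Fli1 223 in 70 and Ets1 91 in 48, and at equal depth they were found in 18.1%, 47.8% and 26.9% of endothelial nuclei. Fli1 was at 761 CPM in endothelial nuclei and 435 CPM in macrophages, while Erg was at 198 CPM and 2.53 CPM. Tie1, the partner of Tek, had 77 UMIs in 48 nuclei and was 286-fold higher than in other barcodes. Adgrl4 and Cyyr1 were 339-fold and 299-fold higher.

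By a rule of ratio (at least 30 UMIs, UMIs in all 4 libraries and a ratio over 1 in each), 829 genes were eligible and the leading 25 ranged from 114-fold to 490-fold. Those outside the endothelial lists were led by the uncharacterised gene 4930578C19Rik (490-fold, 46 UMIs), Ccm2l (415-fold), a relative of the cerebral cavernous malformation gene Ccm2, and the zinc finger gene Zfp366 (340-fold). Gm5127, a predicted gene, was 329-fold higher but had 169 UMIs in 26 nuclei, so that a minority carried it. The GTPase Gimap6 was 287-fold higher, the transmembrane glycoprotein Cd93 198-fold and the transmembrane protein Tm4sf1 141-fold. Of the 25, Igfbp3 (291-fold) and Exoc3l2 (224-fold) came from the list of genes of fenestrated endothelium.

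Within the endothelial nuclei, Slco1a4 and Plvap marked largely different nuclei. At least 2 UMIs of Slco1a4 without 2 of Plvap were held by 24 nuclei, here called Slco1a4 nuclei, and the converse by 33 Plvap nuclei; 4 held both and 34 neither. The cut was chosen with the values in view, and each set is a range and not a cell type. Slco1a4 counted towards the rule and Plvap did not. A nucleus without Slco1a4 therefore had to hold at least 3 other genes of the rule. The split and all ratios between these sets are thus descriptions with no test. Slco1a4 nuclei numbered 6 and 2 at 5 months and 15 and 1 at 2.5 months. Plvap nuclei numbered 0 and 13 at 5 months and 14 and 6 at 2.5 months. Thus 5-month replicate 1 had Slco1a4 nuclei without Plvap nuclei, 5-month replicate 2 and 2.5-month replicate 2 had mostly Plvap nuclei, and 2.5-month replicate 1 had both in similar number. Among all endothelial nuclei, those with 2 or more Plvap UMIs made up 0% and 71.4% at 5 months and 27.8% and 70% at 2.5 months. The mice of 1 age thus differed widely, and the ages overlapped. Without the 2 nuclei that go against their label, 5-month replicate 2 had 12 Plvap nuclei and a share of 73.7%.

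**Figure D3:**
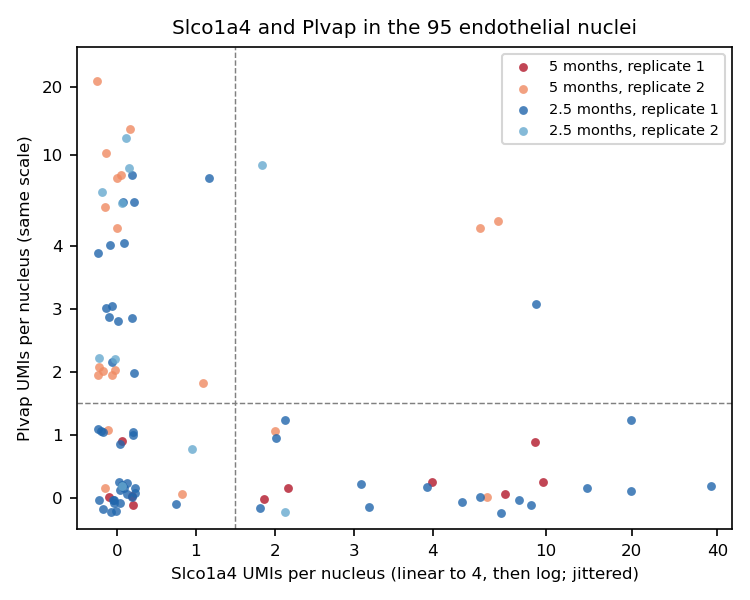
Slco1a4 UMIs (x axis) and Plvap UMIs (y axis) in each of the 95 endothelial nuclei, both linear up to 4 and logarithmic beyond, with a small jitter; red tones are 5-month and blue tones 2.5-month libraries, and dashed lines mark the cut at 2 UMIs. Points lie along the axes, with 4 nuclei past both lines.

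Barrier transport genes were mostly higher in Slco1a4 nuclei. Of 11 genes of the barrier transport list with at least 20 UMIs, 10 were higher there and 7 at least 2-fold, with a median ratio of 3.21; over all 3698 genes with as many UMIs the median ratio was 1.00, 13% were at least 2-fold higher in Slco1a4 nuclei and 15.9% at least 2-fold higher in Plvap nuclei. Summed, all 23 genes of the list were at 9471 CPM in Slco1a4 nuclei, 4263 CPM in Plvap nuclei and 2986 CPM in nuclei with neither. The list was not particular to endothelial nuclei, which held it at 4926 CPM, beside 2361 CPM in rods and 2313 CPM in Müller glia. Of the 23 genes, 20 were higher in endothelial nuclei than in all other barcodes, and 7 were over 10-fold higher. Bsg, the chaperone of monocarboxylate transporters, had 137 UMIs in Slco1a4 nuclei and 25 in Plvap nuclei, 8.70-fold higher in CPM (95% counting interval 5.65 to 13.9); 1 nucleus held 43 of the 137, and without 2.5-month replicate 1 the ratio was 5.48. Slc2a1, the glucose transporter of the barrier, had 49 and 10 UMIs, a ratio of 7.78 (3.89 to 17.2), which was 3.65 without 2.5-month replicate 1 and 22.9 without 5-month replicate 2. Abcb1a, the drug efflux pump P-glycoprotein, had 43 and 9 UMIs, a ratio of 7.59 (3.65 to 17.7). The counting interval over all libraries lay above 1 for all 3.

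The rest of the list was graded. Slc7a5, the large neutral amino acid transporter, had 24 and 3 UMIs (ratio 12.7, interval 3.86 to 65.9), and Slc6a6, the taurine transporter, 95 and 47 UMIs (ratio 3.21, interval 2.24 to 4.65). Abcg2, a second efflux pump, had 51 and 49 UMIs, a ratio of 1.65 (1.09 to 2.50), which was 3.13 without 2.5-month replicate 1 and 0.906 in that library alone. Insr, the insulin receptor, ran the other way, with 59 and 204 UMIs and a ratio of 0.459 (0.338 to 0.616). Tjp1, the tight junction scaffold ZO-1, was also higher in Slco1a4 nuclei, with 64 and 18 UMIs and a ratio of 5.65 (3.30 to 10.1).

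Genes of fenestrated endothelium were the mirror image. With Plvap itself left out, all 4 listed genes with at least 20 UMIs were at least 2-fold higher in Plvap nuclei, where the same held for 15.9% of all genes. Exoc3l2 had 74 UMIs in Plvap nuclei and 8 in Slco1a4 nuclei, a ratio of 5.83 (2.81 to 14), which was 1.87 without 2.5-month replicate 1 and 18.9 without 5-month replicate 2. Igfbp3, which binds insulin-like growth factors, had 85 and 13 UMIs, a ratio of 4.12 (2.28 to 8.05), and the water channel Aqp1 58 and 5 UMIs, a ratio of 7.31 (2.96 to 23.3). The VEGF co-receptor Nrp1 had 124 and 27 UMIs, a ratio of 2.89 (1.90 to 4.56). Without 2.5-month replicate 1 the ratios of Igfbp3 and Nrp1 were 2.52 and 1.89. Kdr had 92 UMIs in 29 of the 33 Plvap nuclei and 6 UMIs in 5 of the 24 Slco1a4 nuclei, but Kdr and Slco1a4 both counted towards the rule, so a nucleus without Slco1a4 had to hold other rule genes, and nothing is read from this difference. Flt1, which the rule did not use, had 263 UMIs in Plvap nuclei and 177 in Slco1a4 nuclei, a ratio of 0.936 (0.771 to 1.14).

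**Figure D4:**
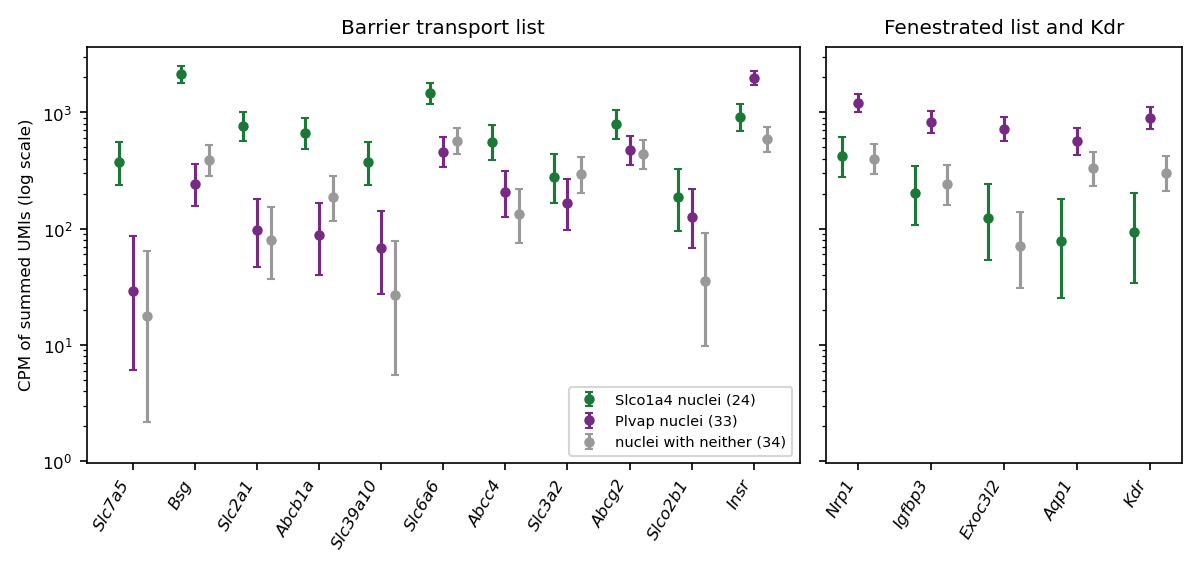
CPM of summed UMIs on a log scale, with exact Poisson 95% intervals, in Slco1a4 nuclei (24), Plvap nuclei (33) and nuclei with neither (34). Of the barrier transport genes on the left, 10 of 11 have a higher level in Slco1a4 nuclei than in Plvap nuclei, Insr being the exception; the 4 fenestrated genes on the right are higher in Plvap nuclei. Kdr, beside them, is a gene of the rule, as is Slco1a4, and its levels are a description only.

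The division was also present inside 1 library. In 2.5-month replicate 1, with 15 Slco1a4 nuclei and 14 Plvap nuclei, 7 of the 11 barrier transport genes were at least 2-fold higher in Slco1a4 nuclei and all 4 fenestrated genes at least 2-fold higher in Plvap nuclei, against 21.7% and 21.1% of 3678 genes. The other 4 barrier transport genes were higher in Plvap nuclei there, Insr at least 2-fold, where over all libraries only Insr was. Bsg had 112 UMIs in Slco1a4 nuclei of that library and 10 in its Plvap nuclei. Without that library, 9 Slco1a4 and 19 Plvap nuclei remained. Of these, 6 Slco1a4 and 0 Plvap nuclei were from 5-month replicate 1, so the sets came largely from different mice. A difference between these sets cannot be told apart from one between libraries. Among these nuclei, 10 of the 11 barrier transport genes were at least 2-fold higher in Slco1a4 nuclei. All 4 fenestrated genes were higher in Plvap nuclei, Aqp1 and Igfbp3 at least 2-fold. The shares of 3689 genes were 19.1% and 28.5%. In 5-month replicate 2, with 2 Slco1a4 nuclei, Bsg had 1 UMI in them, and Slc2a1 had 0 beside 8 in the 13 Plvap nuclei. Nuclei with 4 or more pigment (Ttr not counted), mural (Ebf1 not counted), macrophage or fibroblast UMIs were then left out. So were those with over 3 times their library's median UMIs and those without endothelial UMIs outside the rule. This left 19 Slco1a4 and 27 Plvap nuclei, with the same counts of 7 of 11 and 4 of 4. The 6 listed smooth muscle genes summed to 543 CPM in Slco1a4 nuclei and 39.1 CPM in Plvap nuclei. The mural list was nearly level, at 2251 CPM against 2073 CPM, but Ebf1 gave most of its UMIs. Acta2, of the smooth muscle list, had 24 UMIs in Slco1a4 nuclei and 1 in Plvap nuclei. Rgs5, of the mural list, was not level, with 20 and 1 UMIs and a ratio of 31.8. In the Slco1a4 nuclei all came from 2.5-month replicate 1. Acta2 lay in 2 of them (19 and 5 UMIs) and Rgs5 in 4, of which 1 held 13. Müller glia genes were higher in Slco1a4 nuclei, at 3152 CPM against 1388.5 CPM. There 4 of 5 were at least 2-fold higher (Apoe, Dkk3, Glul and Vim). Without the nuclei left out above all 5 were still higher there, Dkk3 and Glul at least 2-fold. Rod genes were higher in Slco1a4 nuclei for 10 of 11, with 2 at least 2-fold, with and without those nuclei. Pigment genes were higher in the Plvap nuclei, at 1779.6 CPM against 745 CPM, but few nuclei carried them. Of their 182 UMIs in Plvap nuclei, 1 nucleus of 5-month replicate 2 held at least 68 and another at least 38. With Ttr left out, at least 4 pigment UMIs were held by 3 of the 33 Plvap nuclei and by 1 of the 24 Slco1a4 nuclei. The part of any of these in the division was not tested beyond the values without the nuclei left out above.

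Of the norrin and Wnt list, 9 of 12 genes with at least 20 UMIs were higher in Slco1a4 nuclei and 3 in Plvap nuclei. Lef1, the transcription factor that acts with beta-catenin and is itself raised by Wnt signalling, had 26 and 6 UMIs in 5-month endothelial nuclei and 48 and 0 in 2.5-month ones. It was found in 20 nuclei, of which Slco1a4 nuclei carried 73 of its 80 UMIs and Plvap nuclei 6, a ratio of 19.3 (8.46 to 54.4), or 67.2 without 5-month replicate 2. The norrin receptor genes Fzd4, Lrp5 and Tspan12 were the 3 higher in Plvap nuclei. Fzd4 had 11 UMIs in Plvap nuclei and 1 in Slco1a4 nuclei, a ratio of 6.93 (1.01 to 298). Lrp5 had 18 and 2 UMIs, a ratio of 5.67 (1.36 to 50.4), and Tspan12 19 and 4 UMIs, a ratio of 2.99 (0.994 to 12.1). Of the 11 Fzd4 UMIs, 7 came from 2.5-month replicate 1; without that library the ratios of Fzd4 and Tspan12 were both 1.22 and that of Lrp5 3.35, and without 5-month replicate 2 that of Lrp5 was 10.7. The order of other receptor genes depended on the libraries: Fzd6 had 13 UMIs in Plvap nuclei and 9 in Slco1a4 nuclei, and the co-receptor Lrp6 31 and 22, both slightly higher in CPM in Slco1a4 nuclei, whereas Fzd6 was 1.66-fold higher in Plvap nuclei without 5-month replicate 1 and Lrp6 6.08-fold higher there without 2.5-month replicate 1. Of the 12 genes, 4 were at least 2-fold higher in Slco1a4 nuclei (Lef1, Znrf3, Adgra2 and Reck) and 3 at least 2-fold higher in Plvap nuclei, beside 13% and 15.9% of all genes. Ndp, which encodes norrin, and Tcf7 had 0 UMIs in the endothelial nuclei. The Wnt target Axin2 had 3 UMIs.

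Summed over the list of 17 arterial genes, nuclei with neither gene held 607 of 954 UMIs, and Mgp alone gave 488 of the 954. The level was 5411 CPM in nuclei with neither, 2655 CPM in Slco1a4 nuclei and 1457 CPM in Plvap nuclei. Without Mgp it was 2434, 1382 and 929 CPM, and without the 2 nuclei that held most Mgp it was 3840, 2655 and 1457 CPM, so the order was the same. Mgp, the matrix Gla protein of arteries, had 8 and 197 UMIs in 5-month nuclei and 279 and 4 in 2.5-month nuclei. Of its 488 UMIs, 334 lay in nuclei with neither, 82 in Slco1a4 nuclei and 54 in Plvap nuclei, and a single nucleus held 107. Nuclei with at least 10 Mgp UMIs numbered 9 among those with neither, 3 among Slco1a4 nuclei and 2 among Plvap nuclei. Gkn3, known in mouse as an arterial endothelial gene, had 37 of its 38 UMIs in 7 nuclei with neither, of which 1 held 24. Sox17, a factor of arterial identity, had 16 of its 21 UMIs there, and Vegfc, a VEGF receptor ligand, had 38 UMIs there, 16 in Slco1a4 nuclei and 6 in Plvap nuclei. Cxcl12, a chemokine of arterial endothelium, ran against the list, with 5 UMIs in nuclei with neither, 28 in Slco1a4 nuclei and 2 in Plvap nuclei. Its ratio of Slco1a4 to Plvap nuclei was 22.2 (5.61 to 193), or 12.6 without 5-month replicate 2.

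On the venous list, Vwf, which encodes the clotting factor stored by endothelium, had 58 UMIs in 20 Slco1a4 nuclei and 26 UMIs in 4 Plvap nuclei, a ratio of 3.54 (2.19 to 5.86), or 6.07 without 5-month replicate 2. The capillary genes on the list split: Slc7a5 and Spock2 were higher in Slco1a4 nuclei, and Rgcc and Ivns1abp in Plvap nuclei. Spock2, a matrix proteoglycan, had 33 UMIs in Slco1a4 nuclei and 5 in Plvap nuclei, of which 1 remained without 5-month replicate 2. Mfsd2a, the lipid transporter of barrier capillaries, had 6 UMIs in all 95 nuclei and Ocln, which encodes occludin, 1 UMI in Plvap nuclei and 2 in Slco1a4 nuclei, so their division was not detectable at this depth.

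Of 8 lymphatic and Schlemm's canal genes, the chemokine Ccl21a stood out in 2 nuclei. One nucleus of 5-month replicate 1 held 14 Ccl21a UMIs and one of 2.5-month replicate 1 held 8, and no other endothelial nucleus had any. Each also held 1 UMI of Prox1, the master factor of lymphatic identity, and 1 of Flt4, the VEGF-C receptor, while Lyve1, Mmrn1, Pdpn and Reln were at 0 in both. Prox1 itself had 20 of its 24 UMIs in 11 nuclei with neither Slco1a4 nor Plvap. One of these, in 2.5-month replicate 1, held 7 Prox1 UMIs beside 32 neuronal and 15 Reln UMIs. Another of that library held 3 Prox1 UMIs beside 21 neuronal UMIs. The part of neuronal RNA was not tested. Summed, the 8 listed genes were at 710 CPM in endothelial nuclei, 605 CPM in Müller glia and 483 CPM in all other barcodes. The 8 listed proliferation genes had 1 UMI, of Ccna2, in all 95 nuclei.

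Between the ages, no gene passed the test in endothelial nuclei. Of 1366 genes with enough UMIs to test, 0 (0%) passed an adjusted p of 0.05 in either direction in edgeR's quasi-likelihood test with Benjamini-Hochberg adjustment on UMIs summed per library, where 31 (2.27%) had an unadjusted p under 0.05. DESeq2 called 1 gene, Gm26870. Without the 2 nuclei that lacked endothelial UMIs outside the rule, edgeR called 0 of 1092 genes. The 2 mice an age leave 2 residual degrees of freedom, and 666 of the genes had a positive log2 fold change (5 over 2.5 months), with a median of -0.01. For 30.7% of the genes, both 5-month levels lay above or both below the 2.5-month levels. A test of whether the age difference in endothelial nuclei differed from that in all other barcodes called 0 genes (19 at an unadjusted p under 0.05), and in the other barcodes alone 1 of 19197 genes (0.00521%) passed, the ribosomal protein gene Rps2, lower at 5 months.

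Endothelial genes had no common direction with age. The 22 tested genes of the list outside the rule had a median log2 fold change of 0.00 and 11 were positive; 0 passed. Ptprb was at 2222 and 1106 CPM at 5 months and 1294 and 1127 CPM at 2.5 months, so the ages overlapped, with a log2 fold change of 0.56 ± 0.56 (SE). Emcn was at 702 and 1222 CPM at 5 months, against 1344 and 1707 CPM at 2.5 months; these did not overlap, yet the log2 fold change of -0.38 ± 0.59 was within its error. The 8 tested barrier transport genes had a median of 0.17, and 6 were positive. The 6 tested norrin and Wnt genes had a median of -0.18 with 2 positive. Of both lists 0 passed.

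In 5-month replicate 1, the library without Plvap nuclei, Plvap was low by definition. The 7 fenestrated genes, Plvap among them, summed to 1287 and 2950 CPM at 5 months, against 1813 and 6829 CPM at 2.5 months. Plvap was at 117 and 1095 CPM in 5-month nuclei and at 444 and 1639 CPM in 2.5-month nuclei. Igfbp3 was at 117 and 553 CPM against 244 and 1502 CPM. Both values of 117 CPM lay below the 175 CPM that 3 UMIs equal in that library. For both genes, each age held a library with a low level and one with a high level, and the ages overlapped. Their log2 fold changes were -0.26 ± 0.94 and -0.80 ± 0.93. All 5 tested genes of the list were negative, with a median of -0.66, and 0 passed.

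Klf2, the flow-induced transcription factor of endothelium, had lower values in both 5-month libraries but did not pass the test. It was at 175 and 138 CPM in 5-month nuclei and at 481 and 410 CPM in 2.5-month nuclei, from 3 and 12 UMIs against 77 and 12 UMIs. The ages did not overlap, as for 30.7% of genes, and the log2 fold change was -1.35 ± 0.53 with an adjusted p of 0.999 in edgeR's test. The 9 tested genes of the flow list, Klf2 among them, all had negative values, with a median of -0.38, and 0 passed. Igfbp5, an insulin-like growth factor binding protein, had the largest negative value among genes at an unadjusted p under 0.05, -3.32 ± 0.92 (adjusted p 0.993 in edgeR's test), from 1 and 6 UMIs at 5 months and 47 and 43 UMIs at 2.5 months. Of the 43, 1 nucleus of 2.5-month replicate 2 alone held 41. Fibroblasts held Igfbp5 at 3435 CPM, beside 331 CPM in endothelial nuclei, and the part of fibroblast RNA was not tested.

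**Figure D5:**
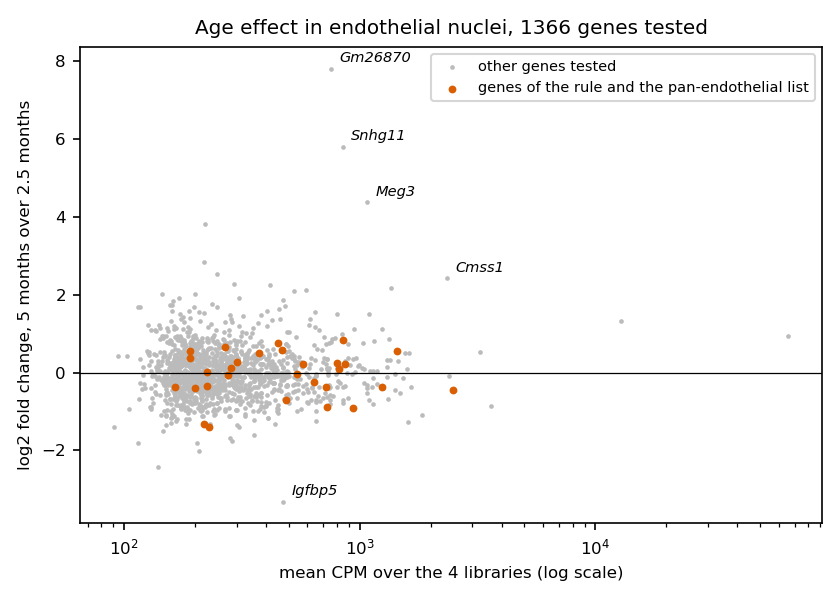
Log2 fold change (5 over 2.5 months, y axis) against mean CPM over the 4 libraries (x axis, log scale) for the 1366 genes tested in endothelial nuclei. Genes of the rule and the endothelial list (orange) lie around 0, between -1.41 and 0.83. The labelled genes, Gm26870, Snhg11, Meg3, Igfbp5 and Cmss1, are named in the text, and 0 genes passed the test.

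The genes farthest above 0 were on none of the endothelial lists. Gm26870, a predicted long noncoding gene at chr9:3000282-3038313, had 16 and 177 UMIs in 5-month nuclei and 0 and 1 in 2.5-month nuclei, with a log2 fold change of 7.81 ± 1.23 and the lowest adjusted p, 0.188 in edgeR's test. Its log2 fold change in all other barcodes was 5.23, which did not pass either. Snhg11, a neuronal noncoding RNA, had 3 and 272 UMIs at 5 months and 6 and 1 at 2.5 months, and Meg3, another noncoding RNA of neurons, 6 and 325 against 28 and 1. Both were high in a single library, 5-month replicate 2. There, without the 2 nuclei that go against their label, Snhg11 was at 167 UMIs and Meg3 at 166, and without 3 nuclei of over 3 times the library's median UMIs at 92 and 71. Of 10 genes chosen earlier because they differed with age across cell classes of these libraries, and so no independent evidence, 6 could be tested and all 6 were positive, with a median of 1.59; 0 passed. Among them Cmss1, a ribosome-related gene, was at 4269.5 and 3411 CPM at 5 months and 569 and 1093 CPM at 2.5 months, a log2 fold change of 2.42 ± 0.61, beside 2.13 in other barcodes. The ribosomal protein gene Rps21 had 0 and 0 UMIs at 5 months and 67 and 5 at 2.5 months, at least 13.2-fold lower at 5 months against a floor of 3 UMIs over both libraries, and Rps2 had 0 and 0 against 28 and 5, at least 6.04-fold lower. In the other barcodes the log2 fold changes were -3.22 for Rps21 and -4.10 for Rps2, of which Rps2 passed the test, and here too the software version went with age.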

How the data were processed

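UMI counts per gene and barcode were used as the authors deposited them, 4 filtered matrices listing 31053 genes on build mm10, written by Cell Ranger 4.0.0 (5 months) and 7.1.0 (2.5 months), per the file headers. Of 32326 barcodes, 27 with over 5% mitochondrial UMIs were removed; each deposited barcode held at least 500 UMIs. Members and gene lists were chosen with earlier results of these data known. No doublet caller was run on so few nuclei; UMIs of other classes were counted in each. Rods, Müller glia, fibroblasts, mural nuclei and macrophages were picked by marker sums for comparison.

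UMIs were summed per library and tested with edgeR 4.0.16 (R 4.3.3; quasi-likelihood, TMM, filterByExpr, age as the term), with DESeq2 1.42.0 as an alternative; shares were tested by exact permutation. The script of the age test was tested on simulated data, and that of the interaction was not. Other work used Python 3.11.15, numpy 2.4.6, scipy 1.17.1 and pandas 2.3.3. Gene positions are from GENCODE M21. Named genes were to be those passing the age test (none did), the 25 leading genes by ratio, list members with at least 20 UMIs chosen by role, and 10 genes of an earlier comparison; genes below these limits that are named, such as Mfsd2a, and genes of the age test such as Gm26870 and Klf2 were named after their values were seen. Alternatives were other member rules, scalings, filters and libraries left out in turn.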

Additional observations from a re-analysis of the deposited data

How the results depend on the processing

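Depth and the 2 mice an age limit the age test: 95 nuclei gave 17098 to 159991 UMIs a library, and 1366 genes could be tested. The count of genes called higher at 5 months was 0 as reported, and 1 (Gm26870) with DESeq2, with a replicate block, or without nuclei holding mural, macrophage or fibroblast UMIs. With no filter on low counts it was 21, with 2 lower, of 14814 genes, and it was 0 under the other member rules and scaling run. With each replicate left out in turn, it ranged from 0 to 63 and the count called lower from 0 to 2. The 63 came without 5-month replicate 1, where 5-month replicate 2 stood alone and is assumed to vary like the other age; without 5-month replicate 2 the 2 genes were Il1r1 and Gm26870, and without either 2.5-month replicate the count was 0. The cause was not tested. The interaction gave 0 to 1 with replicates left out, the 1 being Gm5127 without 5-month replicate 2 (adjusted p 0.0403 in edgeR's test). The numbers do not pair the animals: the replicate difference at 5 months had r = 0.0288 with that at 2.5 months across 1366 genes, which are not independent, and the replicate block moved the calls to 1. The share difference was 0.0370 percentage points without 2.5-month replicate 1 and stayed negative in the other alternatives run. Under the looser member rule the log2 fold changes of Pcdh15 (0.12), Adgrl3 (-0.087) and Tenm2 (-0.56) changed sign; none passed in either fit. In the comparison of Slco1a4 with Plvap nuclei, with each replicate left out, 6 to 10 of the 11 barrier transport genes were at least 2-fold higher in Slco1a4 nuclei, and 2 to 4 of the 4 fenestrated genes at least 2-fold higher in Plvap nuclei, the 2 without 2.5-month replicate 1; these alternatives, and those on pigment, mural (Ebf1 left out) or endothelial UMIs and on nuclei of either kind, were chosen after seeing the data.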

Other observations

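Genes of other lists also differed between the Slco1a4 and Plvap nuclei, as values with no test. The endothelin receptor gene Ednrb had 40 UMIs in Plvap nuclei and 7 in Slco1a4 nuclei, a ratio of 3.60 (95% counting interval 1.60 to 9.52). It was 10.6 without 2.5-month replicate 1 and 1.02 in that library alone. The NAD-consuming enzyme gene Cd38 had 32 and 2 UMIs, a ratio of 10.1 (2.57 to 86.8), or 16.4 without 5-month replicate 1; 1 Plvap nucleus held 12 of the 32.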
